A study of Mus musculus with 3 samples.

Results

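The genes described are the ephrins and their Eph receptors, the Slits and their Robo receptors, and the netrins with the receptors Dcc, Neo1 and Unc5a to Unc5c. They were taken by symbol from the count files, as every gene named Epha, Ephb, Efna, Efnb, Slit, Robo or Ntn with a number, plus those 5 netrin receptors, which gave 38 of the 32532 genes listed. Of these, 15 encode ligands and 23 encode receptors. The tissue was the border of ventral cortex and amygdala, called the cortex-amygdala transition zone, of adult, untreated control mice. They belonged to the Lypd1-EGFP/Rpl10a line OI82, in which regulatory DNA of Lypd1 drives a ribosomal protein, L10a, joined to EGFP. Tagged polysomes were immunopurified with antibodies to EGFP, and the bound RNA was sequenced. There was 1 group of 3 libraries from 3 mice, called replicates 1, 2 and 3, and no unpurified RNA or second genotype was analysed here. It is not stated whether a library held RNA of 1 mouse, so the SD is that between libraries and may be partly technical.

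These families steer growing axons and dendrites in development and act at synapses in the adult brain. Ephrin-A ligands are held to the membrane by a lipid anchor and mainly bind EphA receptors, while ephrin-B ligands cross the membrane and mainly bind EphB receptors and Epha4. Both partners stay on their cells, so that signals can run into the receptor-bearing and the ligand-bearing cell. Slits are secreted proteins that repel axons through Robo receptors. Netrins attract axons through Dcc and repel them through Unc5 receptors, and Neo1 (neogenin) binds both netrins and the repulsive guidance molecules of the Rgm family.

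Levels between genes are given per length, as CPM, the count scaled to all gene counts of the library, divided by the kilobases (kb) covered by a gene's annotated exons. Plain CPM is used only to compare 1 gene between libraries. The libraries held 18526251, 24690301 and 8668527 gene counts. For a gene with no count, the level that 3 counts would give, 0.162, 0.122 and 0.346 CPM in replicates 1, 2 and 3, is the upper limit, for counting error only. Lypd1, the gene that names the line, measured 232, 601 and 272 CPM, and Rpl10a, the gene of the tagged protein, 140 ± 39.7 CPM (SD, n = 3). The 7 neuronal markers were all detected and summed to 11378, 16739 and 9025 CPM. The 7 astrocyte markers were also all detected, at 2131, 1330 and 1315 CPM. Detection means 1 CPM or more in each library. Of the mural and fibroblast markers 7 of 8 were detected, with a sum of 175, 66.0 and 71.4 CPM, and of the endothelial markers 5 of 7, with 42.1, 57.4 and 29.8 CPM. Of the microglial markers 4 of 7 were detected, with 46.4, 21.3 and 34.4 CPM, and C1qa was at 0 in replicate 1. For oligodendrocytes 6 of 7 were detected, with 384, 232 and 225 CPM, and for their precursors 5 of 5, with 182, 135 and 246 CPM. The 3 cholinergic markers were not detected in every library and summed to 46.9, 0.81 and 2.65 CPM, with Slc18a3 at 0 in replicates 2 and 3. Fewer cells of a type and less RNA per cell cannot be told apart in these libraries. RNA of untagged cells could not be measured separately, since no unpurified RNA was analysed here. The levels given are those of the captured RNA.

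Of the 38 guidance genes, 24 were detected, 9 of the 15 ligands and 15 of the 23 receptors. Among all listed genes 39.3% were detected, and among genes with a count in any library 61.5%, so that the members' share lay near the latter. On the per-length scale 11 of the 24 detected members stood above the median of 11720 detected genes, which was 5.81 ± 0.319 CPM per kb (SD, n = 3). The 5 highest members were Efnb3, Unc5a, Neo1, Efna5 and Slit3, and they held 50.9 ± 4.83% of the summed CPM per kb of all 38. Ligands as a whole summed to 75.3, 72.7 and 70.9 CPM per kb and receptors to 74.9, 75.7 and 108 CPM per kb. The 2 sides were thus alike in replicates 1 and 2, and receptors were higher in replicate 3. Replicate 3 also had the fewest gene counts. Its share of reads in no counted feature was 45.3%, against 31.4% and 25.6% in replicates 1 and 2. Malat1 took 3.45%, 1.44% and 8.25% of the gene counts in replicates 1, 2 and 3. A link between these values and the receptor sum was not tested.

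**Figure D1:**
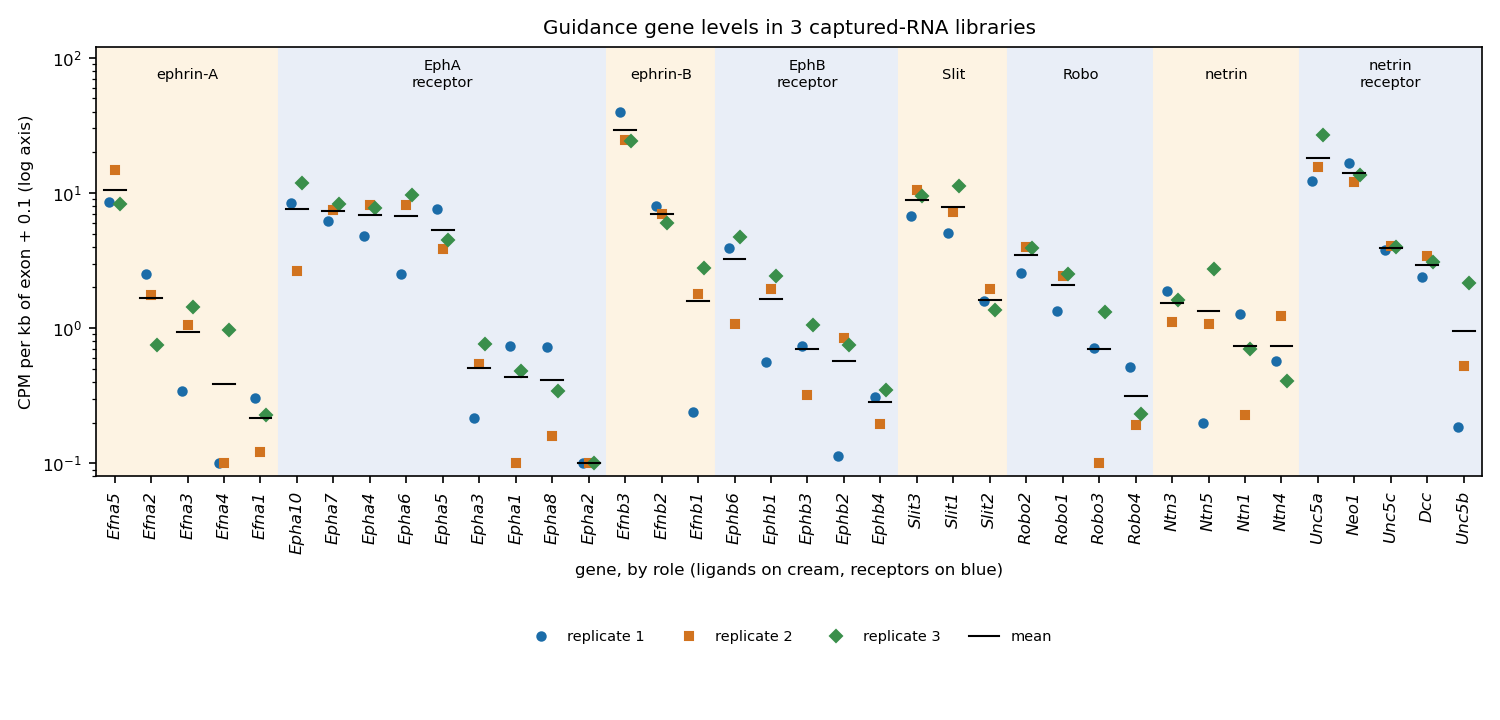
Each gene's CPM per kb of exon, plus 0.1 so that 0 can be drawn, in replicates 1, 2 and 3 on a log axis, with a line at the mean and genes ordered by mean within each role. Efnb3, Unc5a, Neo1 and Efna5 had the highest means of all 38 genes, and Epha2 sat at 0 in all 3 libraries.

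A kinase loop in the receptors and a tail in the ephrin-B ligands set some members apart from their relatives, and the DNA that encodes them is shown here. Eph receptors are tyrosine kinases, except that EphA10 and EphB6 are known as members without kinase activity. The stretch that encodes the catalytic loop of the kinase is printed here for the 5 most abundant EphA genes and the 2 most abundant EphB genes, with capitals on the codon that holds the catalytic aspartate in Epha4. The sequences are the coding strand, 5′ to 3′, from GENCODE M21 transcripts on GRCm38, the assembly that mm10 names.
Epha4 (chr1:77382962-77382985, minus strand): catcgaGACctggctgccaggaac
Epha5 (chr5:84084799-84084822, minus strand): catagaGACcttgctgctagaaac
Epha6 (chr16:59775636-59775659, minus strand): catcgaGATcttgccgcgaggaac
Epha7 (chr4:28950452-28950475, plus strand): cacaggGACcttgcagcgcgcaac
Epha10 (chr4:124914018-124914041, plus strand): caccggGGCcttgcagcccgccga
Ephb1 (chr9:101964031-101964054, minus strand): caccggGACctggctgctagaaac
Ephb6 (chr6:41618664-41618687, plus strand): caccgaGCActctcggcccgaagt
An aspartate codon stood at this place in 12 of the 14 Eph genes, and the exceptions were Epha10 and Ephb6. Those also had the fewest bases in common with Epha4, 14 of 24 each.

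The 3 ephrin-B genes end in a shared cytoplasmic tail whose last residues dock to PDZ domains. Its last 48 coding bases before the stop codon are shown because the 3 genes, so alike here, differed widely in level. Capitals mark the final 3 codons.
Efnb3 (chr11:69555863-69555910, minus strand): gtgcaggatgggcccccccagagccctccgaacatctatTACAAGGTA
Efnb2 (chr8:8620591-8620638, minus strand): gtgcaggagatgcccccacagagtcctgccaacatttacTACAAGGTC
Efnb1 (chrX:99147477-99147524, plus strand): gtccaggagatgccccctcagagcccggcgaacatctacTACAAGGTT
Efnb2 shared 38 and Efnb1 39 of the 48 bases with Efnb3.

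Among the ligands, the ephrin-B genes had the highest summed CPM per kb, and 1 gene led them. By median CPM per kb the Slits were similar, at 7.17 ± 2.20 against 6.89 ± 0.992, and higher than ephrin-B genes in replicates 2 and 3. Efnb3, a ligand known from the midline that corticospinal axons do not recross, measured 39.3, 24.4 and 24.2 CPM per kb in replicates 1, 2 and 3, a mean of 29.3 ± 8.67 (SD, n = 3). It stood at the 90.3rd percentile of detected genes and held 77.0 ± 5.22% of the ephrin-B sum. Efnb2, an ephrin of neurons and arterial endothelium, measured 7.91, 6.83 and 5.92 CPM per kb. Efnb3 exceeded it by 2.05 ± 0.24 on the log2 scale, in 3 of 3 libraries. Efnb1, which is X-linked, measured 0.141, 1.68 and 2.67 CPM per kb and was not detected in every library, having 9, 143 and 80 counts. The 3 ephrin-B genes kept this order in each library.

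Ephrin-A ligands were also carried by 1 gene, at a lower level. Efna5, a repulsive cue that maps sensory projections onto cortex and thalamus, measured 8.50, 14.6 and 8.18 CPM per kb, with replicate 2 the highest. It held 77.6 ± 6.14% of the ephrin-A sum. The next, Efna2, measured 2.41, 1.67 and 0.650 CPM per kb and was lower than Efna5 by 2.77 ± 0.88 on the log2 scale, in 3 of 3 libraries. The remaining ephrin-A genes, Efna1, Efna3 and Efna4, fell short of detection. They lie together on chromosome 3 within 66.3 kb. Efna3 had 11, 57 and 28 counts, Efna4 had 0, 0 and 12, and Efna1 had 7, 1 and 2. Their means were 0.840, 0.289 and 0.118 CPM per kb.

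Of the Eph receptors, 5 EphA genes stood at similar levels and the rest were low. Epha10, Epha7, Epha4, Epha6 and Epha5 together held 96.9 ± 1.43% of the EphA sum, and EphA genes held 85.7 ± 2.90% of the sum over all 14 Eph receptors. Epha7, a receptor for ephrin-A ligands that shapes cortical dendrites and maps, measured 6.07, 7.43 and 8.17 CPM per kb. Epha4, which binds ephrins of both classes, measured 4.68, 8.001 and 7.65 CPM per kb. Epha6 measured 2.42, 8.10 and 9.60 CPM per kb, and Epha5, a receptor of Efna5 in forebrain neurons, 7.49, 3.75 and 4.35. Replicate 1 was thus the lowest of the libraries for Epha4, Epha6 and Epha7 and the highest for Epha5. None of these neighbours in the order of means differed beyond their spread between libraries, and with the length of the longest protein-coding transcript Epha5 came first in place of Epha10.

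The kinase-inactive Epha10 had the highest EphA mean, but not in every library. It measured 8.36, 2.56 and 11.7 CPM per kb, so that replicate 2 held the lowest value of the 5 genes and replicates 1 and 3 the highest. GENCODE M21 also annotates a shorter Epha10 transcript that lacks the stretch printed above, and counts per gene do not separate the forms. Epha3, a receptor of Efna5, was detected at 0.118, 0.447 and 0.664 CPM per kb, less than Epha5 by 3.49 ± 1.42 on the log2 scale. Epha1, better known from epithelium, had 46, 0 and 13 counts, and Epha8 had 55, 7 and 10. Neither was detected in every library. Epha2, a receptor of epithelial and endothelial cells, had 0 counts in all 3 libraries, which allows up to 0.122 to 0.346 CPM.

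EphB receptors were low in comparison with their ligands. The other kinase-inactive member, Ephb6, led them with 3.82, 0.977 and 4.65 CPM per kb. Ephb1, which guides retinal axons at the optic chiasm, followed with 0.463, 1.85 and 2.34 CPM per kb. Replicate 2 was thus the lowest for Ephb6 and replicate 1 for Ephb1, and in replicate 2 alone Ephb1 was the higher of the pair. Ephb3 was detected at 0.634, 0.220 and 0.955 CPM per kb. Ephb2, which binds NMDA receptors at synapses, had 3, 233 and 71 counts, or 0.0128, 0.748 and 0.650 CPM per kb. Ephb4, the venous partner of Efnb2, had 18, 11 and 10 counts and was not detected in every library. Together Epha10 and Ephb6 took 34.3%, 10.3% and 31.7% of the summed CPM per kb of all Eph receptors, the lowest share being in replicate 2.

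All 3 Slit genes were detected, and Slit1 and Slit3 stood above Robo1 and Robo2 in 3 of 3 libraries while Slit2 did not. Slit3 measured 6.59, 10.3 and 9.37 CPM per kb and Slit1 4.97, 7.18 and 11.2 CPM per kb. These did not differ beyond their spread (log2 difference 0.22 ± 0.42). Slit2, the most studied axon repellent of the family, measured 1.49, 1.84 and 1.25 CPM per kb and was lower than Slit1 by 2.21 ± 0.74 on the log2 scale. Its value rests on the length used, since its annotated exons cover 25433 bases and its longest protein-coding transcript 9960. With the latter its mean was 3.90 ± 0.750 CPM per kb, still under the 8.12 ± 3.29 of Slit1.

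Robo2 and Robo1, the main Slit receptors of forebrain neurons, both lie on chromosome 16. Robo2 measured 2.45, 3.89 and 3.78 CPM per kb, and Robo1 1.24, 2.34 and 2.42 CPM per kb. Both were lowest in replicate 1, and Robo2 exceeded Robo1 by 0.75 ± 0.16 on the log2 scale in 3 of 3 libraries. Slit3 exceeded Robo2 by 1.36 ± 0.06 and Slit1 exceeded it by 1.13 ± 0.36, again in 3 of 3 libraries each. With the longest transcript as the length these differences were 0.61 ± 0.06 and 0.23 ± 0.36. Slit2 minus Robo2 was −1.08 ± 0.42 on the log2 scale, below 0 in 3 of 3 libraries, and Slit2 minus Robo1 was −0.33 ± 0.58, within its spread. Robo3, which controls midline crossing and binds Nell2, had 77, 0 and 72 counts. It was at least 68.4-fold lower in replicate 2 than in replicate 3, with the 3-count floor of replicate 2. Robo4, an endothelial receptor, had 41, 12 and 6 counts, and its gene ends 553 bases from the end of Robo3 on chromosome 9.

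By summed CPM per kb netrins were the lowest of the ligand groups and their receptors the highest of the receptor groups, in each library. By the median CPM per kb of a group, ephrin-A genes were lower than netrins on average (0.686 ± 0.385 against 0.958 ± 0.119), and in replicate 3 the EphA median was above that of netrin receptors (4.35 against 3.86). Ntn3, a netrin that binds Dcc and Unc5 receptors, measured 1.77, 1.01 and 1.51 CPM per kb. Ntn5 measured 0.0974, 0.969 and 2.65 CPM per kb from 4, 53 and 51 counts, and 23.4% of its exon bases overlap exons of the gene Sec1 on the other strand. Ntn1, the classical axon attractant, had 137, 20 and 33 counts, or 1.18, 0.129 and 0.606 CPM per kb, and was under 1 CPM in replicate 2. Ntn4, a basement membrane netrin, measured 0.476, 1.13 and 0.308 CPM per kb. No netrin differed from its neighbour in the order beyond the spread.

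Among the netrin receptors, Unc5a and Neo1 held 80.9 ± 2.34% of the summed level. Unc5a, a repulsive netrin receptor, measured 12.1, 15.5 and 26.5 CPM per kb, with replicate 3 the highest. Neo1 measured 16.5, 12.003 and 13.5 CPM per kb. The pair did not differ beyond its spread (log2 difference 0.30 ± 0.71). Unc5c, a further repulsive receptor, measured 3.66, 3.93 and 3.86 CPM per kb, the narrowest range of all members in plain CPM, with a highest library 1.07 times the lowest. Dcc, the attractive receptor, measured 2.28, 3.31 and 2.98 CPM per kb. It was lower than Neo1 by 2.26 ± 0.50 and lower than Unc5a by 2.56 ± 0.49 on the log2 scale, in 3 of 3 libraries each. Unc5b, a receptor of endothelium and of some neurons, had 10, 66 and 112 counts, or 0.0863, 0.427 and 2.06 CPM per kb, and was not detected in every library.

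**Figure D2:**
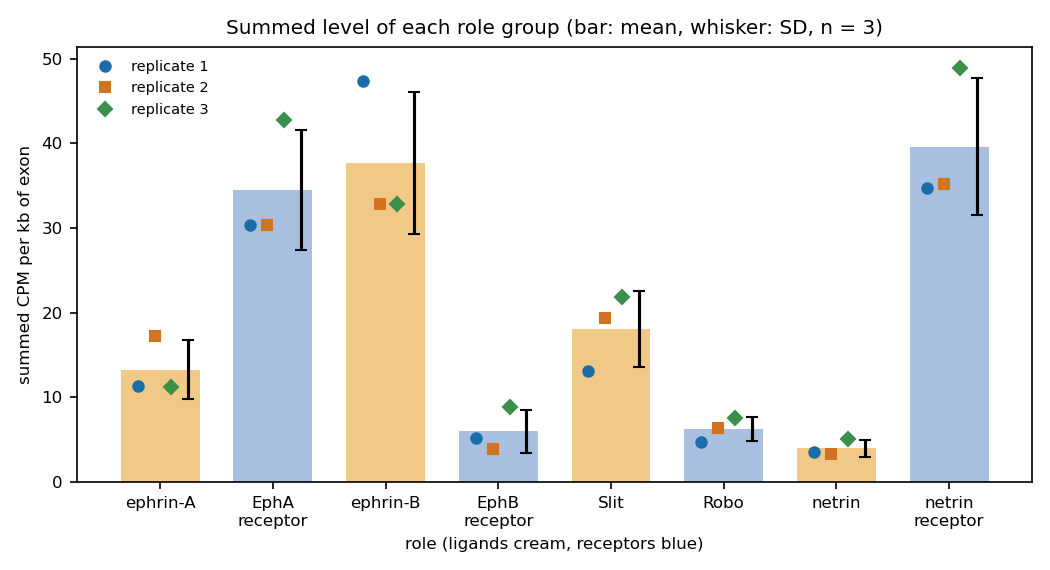
Summed CPM per kb of exon of the genes in each role group, with bars at the mean, whiskers of 1 SD to each side and points for the 3 libraries. Ephrin-B ligands had the highest mean sum of the ligand groups and netrin receptors that of the receptor groups, and netrins had the lowest of all.

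Ligands were then set against receptors within each library, as the difference of the median log2(CPM per kb + 0.1) of the 2 sides. Over all members the difference was 0.25, −0.13 and −0.65 in replicates 1, 2 and 3, or −0.18 ± 0.45, so that neither side was higher beyond the spread. It was −1.09 ± 0.27 with no length correction and −0.55 ± 0.14 with the length of the longest protein-coding transcript, both beyond the spread. With detected members alone it was 0.57 ± 0.24 and with means in place of medians 0.21 ± 0.26, which turns its direction. Within families the difference was larger and its direction depended on the family.

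Ephrin-B ligands exceeded EphB receptors by 3.83, 3.03 and 2.51 on the log2 scale, a mean of 3.12 ± 0.66 or 8.72-fold. The summed CPM per kb of Efnb1 to Efnb3 was 9.22, 8.46 and 3.72 times that of the 5 EphB genes. Epha4, which also binds ephrin-B ligands, was left out of this comparison. Its mean was 6.78 ± 1.82 CPM per kb, and the 5 EphB genes summed to 5.96 ± 2.58. Efnb3 exceeded Epha4 by 2.10 ± 0.82 on the log2 scale, in 3 of 3 libraries. Slits exceeded Robos by 2.38, 3.41 and 2.38, a mean of 2.72 ± 0.60 or 6.61-fold, and by 1.43 ± 0.19 with detected members alone, since Robo3 and Robo4 then drop out. In both families the ligands were the higher side in 3 of 3 libraries. Ephrin-A ligands were lower than EphA receptors by 2.14 ± 0.77 on the log2 scale, with −2.87, −1.35 and −2.20 in replicates 1, 2 and 3. The size of this median difference rests in part on the many low ephrin-A genes, and with detected members alone it was −0.66 ± 0.89. The summed ephrin-A level was 0.374, 0.568 and 0.261 of the EphA sum, a log2 difference of −1.38 ± 0.56. Netrins were lower than their receptors by 1.97 ± 0.14, with −2.13, −1.89 and −1.89, and the summed netrin level was 0.102, 0.0918 and 0.104 of the receptor sum. In these 2 families the receptors were the higher side in 3 of 3 libraries. No p-value is given for these scores over the members, and a sign-flip test over 3 libraries could not go below 0.25.

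**Figure D3:**
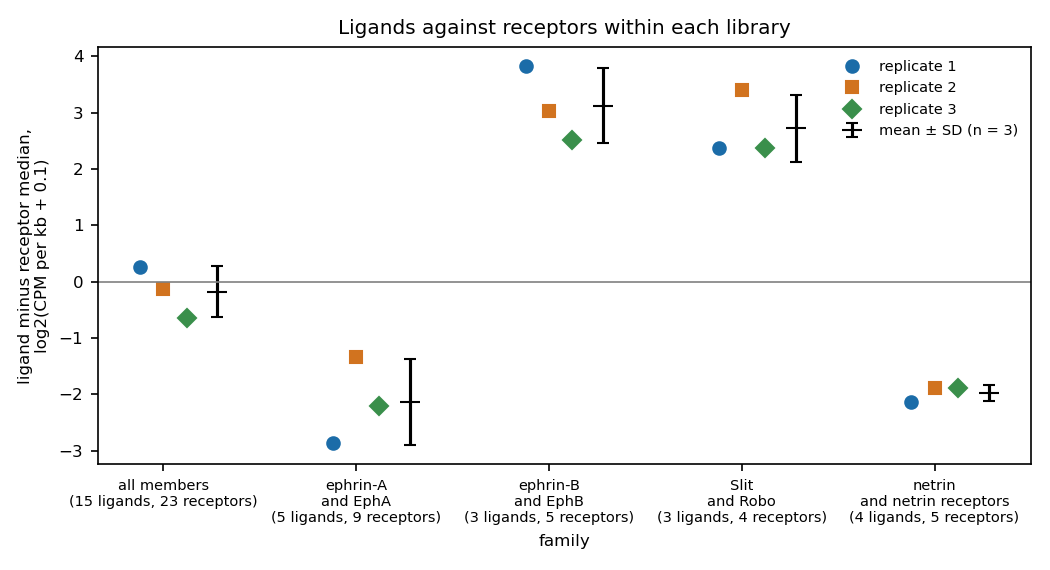
Difference between the median of ligands and the median of receptors on the log2(CPM per kb + 0.1) scale within each library, with the mean ± SD over 3 libraries beside the points. Ephrin-B and Slit ligands lay above 0 and ephrin-A ligands and netrins below 0 in all 3 libraries, while the difference over all members fell on both sides of 0.

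The receptors take part in several ligand systems, and the partners outside the naming rule were measured as well. Of 14 further ligands and partners, 13 were detected. Nell2, a ligand of Robo3, led them with 17.5, 37.5 and 24.9 CPM per kb, followed by Flrt3, a membrane ligand of Unc5 receptors, at 12.7 ± 3.60, and by Unc5d, a further Unc5 receptor, at 12.6 ± 2.39 CPM per kb. The Neo1 ligands Rgma and Rgmb measured 5.06 ± 4.83 and 3.23 ± 0.0768 CPM per kb, and Draxin, a Dcc ligand, was not detected, with 2, 10 and 7 counts. A separate list held netrin-G genes and genes of the Lrrc4 family, and all 5 were detected. Lrrc4c, the partner of netrin-G1, measured 46.1 ± 6.05 CPM per kb against 5.49 ± 0.858 for Ntng1, which encodes it. The other leading genes of this list were Lrrc4b and Lrrc4, at 20.7 ± 1.61 and 17.6 ± 7.13 CPM per kb.

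Intracellular effectors were detected almost throughout. Downstream of Eph receptors 17 of 18 listed genes were detected, Vav2 being the exception. Chn1, a Rac GTPase-activating protein that acts below Epha4, measured 91.8, 204 and 73.7 CPM per kb. Sipa1l1, a Rap regulator at spines, measured 59.6 ± 6.69 and the Rac exchange factor Tiam1 26.9 ± 5.90 CPM per kb. Downstream of Robo and netrin receptors all 18 listed genes were detected. Of all genes in the count files 39.3% were detected, and of those with a count in any library 61.5%. The partner and effector lists were chosen with earlier results of these data known, so their detected shares are not a result about the pathways. The kinase Pak1 measured 179 ± 59.2, Pitpna, a lipid transfer protein that binds neogenin, 108 ± 30.6, and Maged1, a partner of Unc5a, 105 ± 9.25 CPM per kb. In the test of variation between libraries described next, edgeR called 0 of the 13, 5, 18 and 18 genes tested of these 4 lists, and 2 genes had an unadjusted p under 0.05, 1 further partner and 1 Eph effector.

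Whether any member varied between libraries more than genes of like abundance was tested with a goodness-of-fit test in edgeR over the 15336 genes that averaged at least 1 CPM. It called 32 genes, or 0.209%, at an adjusted p under 0.05, and among the 34 members tested it called 0. At an unadjusted p under 0.05 there were 4 members, Epha1, Epha10, Ephb2 and Robo3, or 11.8% against 7.82% of all genes tested. DESeq2's dispersion outliers included 0 members. With a common dispersion for all genes 780 of the 15336 genes, or 5.09%, were called. They included 3 of the 34 members, Epha1, Ephb2 and Robo3. Of the 34 members, 18 had a wider range than the median of genes of their abundance. In 13 of the 24 detected members the highest library was less than 2 times the lowest, which also held for 52.3% of all detected genes.

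The members that came closest to a call did not change in the same direction. Robo3 had 4.16, 0 and 8.31 CPM (edgeR adjusted p = 0.255, and 0.00496 to 0.979 over the alternatives), with replicate 2 the lowest. Ephb2 had 0.162, 9.44 and 8.19 CPM (edgeR adjusted p = 0.416, and 0.0468 to 0.978 over the alternatives), with replicate 1 the lowest. Epha10 had 60.2, 18.5 and 84.2 CPM (edgeR adjusted p = 0.560, and 0.446 to 0.99995 over the alternatives). Epha1 had 46, 0 and 13 counts (edgeR adjusted p = 0.638, and 0.0261 to 0.991 over the alternatives). Epha10, Epha1 and Robo3 were thus all lowest in replicate 2, as were, among others, Ephb6 and Ephb3. Ephb2, Ephb1, Epha6, Epha3, Efnb1, Efna3, Ntn5 and Unc5b were among those lowest in replicate 1. Counting also members not detected, 18 were lowest in replicate 1, 13 in replicate 2 and 6 in replicate 3. Of these, 6, 7 and 0, in that order, were members not detected that had a count. Efna4, at 0 in replicates 1 and 2, is counted under replicate 1. Of all detected genes 32.3%, 36.3% and 31.4% were lowest in replicates 1, 2 and 3, shares to be set against the detected members only. Ntn1 and Epha8 were highest in replicate 1, with 7.39 and 2.97 CPM, and so was Robo4 with 2.21 CPM. In that library the astrocyte, oligodendrocyte, microglial, mural and fibroblast, and cholinergic markers also had their highest sums, given above. Of the 7 microglial markers only Cx3cr1, at 19.8, 0.486 and 2.88 CPM, and Itgam were highest in replicate 1. Aif1 was highest in replicate 2, and Csf1r, P2ry12, Tmem119 and C1qa in replicate 3. The sums of neuronal and endothelial markers were highest in replicate 2 and that of oligodendrocyte precursor markers in replicate 3. Most of the neuronal sum was Snap25, at 7606, 13127 and 6317 CPM. Syt1, Rbfox3 and Tubb3 were also highest in replicate 2, but Stmn2, Map2 and Syn1 were highest in replicate 1. Of the 2 cholinergic markers tested, edgeR called Chat as varying at an adjusted p under 0.05, with 28.6, 0.608 and 1.62 CPM. The part of other cells in the differences of the members was not tested. Without replicate 1 the number of members detected was 29, and the 4 family differences kept their direction, at −1.77, 2.77, 2.90 and −1.89 for ephrin-A, ephrin-B, Slit and netrin.

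**Figure D4:**
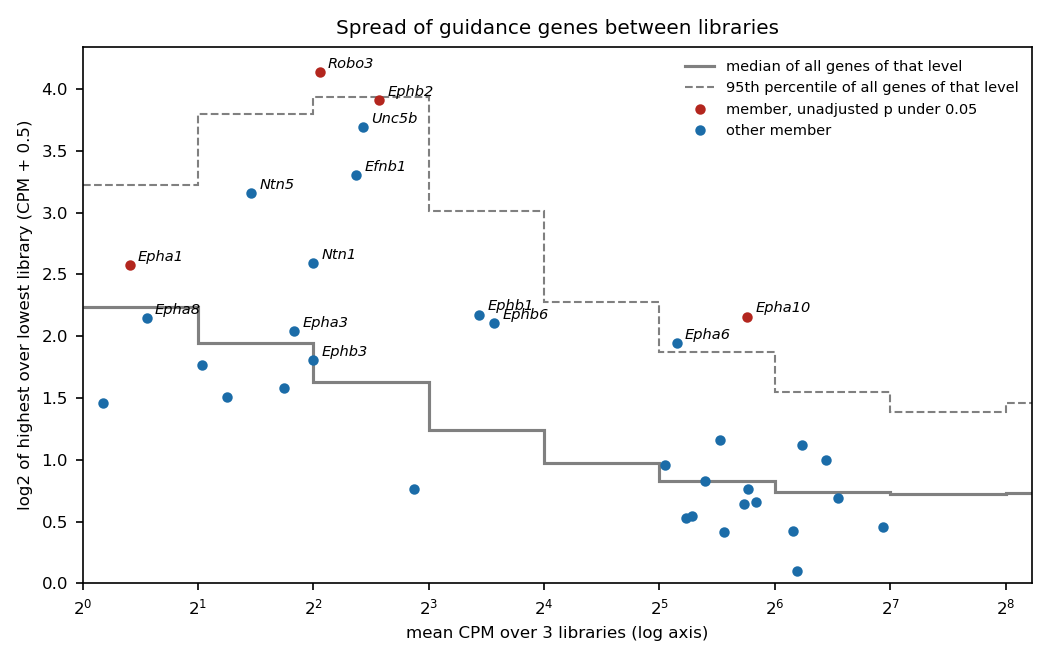
Highest over lowest library on the log2 scale, from CPM + 0.5, against mean CPM for the 34 members that averaged at least 1 CPM. Grey steps give the median and the 95th percentile of all genes in the same range of abundance, and Robo3, Epha10 and Epha6 were the members above the 95th percentile.

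The genes were spread over 16 chromosomes, with 5 members each on chromosomes 4 and 16. In GRCm38 coordinates Epha4 (ENSMUSG00000026235.14) lies on chromosome 1, minus strand, from 77367185 to 77515088. Efnb3 (ENSMUSG00000003934.5) lies on chromosome 11, minus strand, from 69554092 to 69560205. Unc5a (ENSMUSG00000025876.15) lies on chromosome 13, plus strand, from 54949411 to 55006018. Neo1 (ENSMUSG00000032340.8) lies on chromosome 9, minus strand, from 58874687 to 59036441. Of the 38 genes 11 share some exon bases with another gene, and reads there cannot be assigned without the strand setting, which is not given in the sources used here. The share was highest for Ntn5, followed by Efna3 with 14.1% and Efna4 with 10.5%, and it was 6.01% for Epha1, whose partner is Zyx.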

How the data were processed

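The deposited files hold raw counts per gene symbol, 1 file per library. STAR 2.0.0e, HTSeq and the build mm10 are named in the submitters' processing notes. The gene annotation, strand setting and library kit are not given in the sources used here. The 5 summary classes were left out of totals; reads in no counted feature made up 25.6% to 45.3% of all entries and reads with more than 1 alignment 16.5% to 32.7%. Levels are CPM of all gene counts. Lengths are the union of annotated exons in GENCODE M21 (GRCm38), found for 38 of 38 members and 88.7% of the genes tested. Sequences are GENCODE M21 coding sequences; the loop of Epha10 and Ephb6 was placed by alignment to Epha4, and an incomplete Epha10 coding sequence was read in frame from its stop.

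For variation between libraries, edgeR 4.0.16 (R 4.3.3) was run on the counts (TMM scaling, intercept only, trended dispersion, chi-square goodness of fit on 2 degrees of freedom, Benjamini-Hochberg over 15336 genes, threshold 0.05). The procedure was tested on simulated data. Neighbours in an order are said to differ beyond their spread where the mean log2 difference exceeds its SD and has 1 sign in 3 of 3 libraries. Python 3.11.15, pandas 2.3.3, numpy 2.4.6, Biopython 1.88 and matplotlib 3.10.9 were used, and DESeq2 1.42.0 for alternatives. The alternatives comprised TMM or DESeq2 scaling, other detection thresholds, other filters, a common dispersion, other pseudocounts, means or sums in place of medians, no length correction and leaving out each replicate. The longest-transcript length and totals without Rn45s, Malat1 and Meg3 were added after seeing the data.

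The members and lists were chosen with earlier results of these data known. By rule, values in every library are given for the 2 highest members of each of 8 role groups, for members called as varying and for members not detected. The 3 highest genes of each further list are named (the rule also allows the 2 highest genes of each marker list, given here mostly as sums). Other genes named, apart from the members, were chosen after their values were seen.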

Additional observations from a re-analysis of the deposited data

How the results depend on the processing

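The mean of each of the 4 family differences (log2, ligands minus receptors) kept its sign under every alternative run, while the sizes moved. With no length correction the ephrin-A difference was −4.09, the netrin difference −4.02 and the difference over all members −1.09. A pseudocount of 1 gave −1.28 for ephrin-A, 2.20 for ephrin-B, 1.89 for Slit and −1.32 for netrin. Means in place of medians gave −0.80 for ephrin-A, −2.40 for netrin and 0.21 over all members. Detected members alone gave 1.43 for Slit, −2.82 for netrin and 0.57 over all members. For ephrin-A they gave −0.66 ± 0.89, which is within its spread. Sums of CPM per kb gave −1.38 for ephrin-A, 2.70 for ephrin-B, 1.52 for Slit and −3.30 for netrin. The longest-transcript length gave −2.86 for netrin and −0.55 over all members. Leaving out 1 replicate gave −2.54 to −1.77 for ephrin-A, 2.77 to 3.43 for ephrin-B, 2.38 to 2.90 for Slit, −2.01 to −1.89 for netrin and −0.39 to 0.06 over all members. The number of members detected was 18 at 5 CPM, 27 at 0.5 CPM and 24 to 29 with 1 replicate left out. A common dispersion called 780 genes, or 5.09%, and 3 members. DESeq2's dispersion outliers numbered 21, and leaving out 1 replicate called 5 to 22 genes and 0 members. The cause of these changes was not tested. No paired analysis was possible because there was 1 group. Depth limits the low members, since Epha2, at 0 in every library, could still have reached 0.346 CPM in replicate 3. Epha1 and Robo3, at 0 in replicate 2, could have reached 0.122 CPM there. Efna4, at 0 in replicates 1 and 2, could have reached 0.162 and 0.122 CPM.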
